A study of Homo sapiens with 8 samples.

Results

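Homeobox genes encode transcription factors that bind DNA through a homeodomain and set the identity of body regions, organs and cell types in the embryo. The genes described here are those outside the 4 HOX clusters whose symbols begin with ALX, DLX, MSX, IRX, LHX, PAX, OTX, MEIS, PBX, PITX or NKX, together with the sine oculis homeobox genes. They were taken by gene symbol, with a minimum of 20 counts summed over the RNA-seq libraries. Of 57996 gene symbols 66 matched, and 49 of these reached the minimum. PAX genes are counted in by name although PAX9 has no homeodomain and PAX2 and PAX8 keep only part of one.

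The knockout libraries came from clone 11 of HAP1 cells without BCDIN3D, an RNA methyltransferase, and the wild-type libraries from HAP1 cells with the gene. HAP1 is a near-haploid, adherent human line that goes back to a chronic myelogenous leukaemia. Both groups grew for 48 h in IMDM medium with 10% serum, and each gave 2 stranded total RNA libraries. Replicate 1 of each group carries an earlier date in its title and replicate 2 a later one. The labels do not say whether the cultures were separate, so the p-values rest on a spread between libraries that may be technical. All knockout libraries come from 1 clone, so a trait of the clone and an effect of the lost gene cannot be told apart.

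The families fall into 5 classes with different partners. Paired-type genes (ALX, OTX, PITX, PAX) and NK-like genes (NKX, DLX, MSX) pattern the head, the nervous system and organs of the trunk. TALE genes (IRX, MEIS, PBX) include the PBX and MEIS cofactors that bind DNA together with HOX proteins. LIM-homeobox genes (LHX) act through LDB proteins, and the sine oculis genes act with EYA and DACH proteins. Most of these genes are silent outside their own territory, where Polycomb complexes keep their CpG-rich promoters repressed.

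Library depth lay between 20065041 and 24415272 counts, and 16233 genes were tested. BCDIN3D stood at 1.56 and 2.71 CPM (counts scaled to library depth and composition) in the knockout libraries, against 7.40 and 4.90 CPM in wild-type libraries. The change was -1.52 ± 0.24 on the log2 scale (SE, adjusted p = 2.06e-05 in edgeR's quasi-likelihood test). Its transcript was still counted in the clone, at a lower level. Of 12 blood markers 8 lay below the filter on low counts in these cells and 1 had 0 counts in every library, while the pluripotency genes POU5F1 and SOX2 passed it and NANOG had 1 count in all. The summed level of 4 pluripotency markers lay between 634 and 713 CPM in knockout and between 600 and 726 CPM in wild-type libraries. That of 6 epithelial markers lay between 52.6 and 61.7 CPM in knockout and between 75.6 and 82.6 CPM in wild-type libraries, and that of 7 neural markers between 306 and 315 CPM in knockout and between 352 and 388 CPM in wild-type libraries. Of these lists, 4 of 4 tested epithelial and 4 of 5 tested neural markers were called lower in knockout, beside 3.5% of all genes tested. A marker that reached the filter level in only 1 of the 2 groups had to differ in order to be tested. These counts do not set such markers apart. LIN28A was lower among 3 tested pluripotency markers. VIM and SPARC were higher among 6 tested mesenchymal markers, beside 3.06% of all genes tested. Of 4 tested blood markers the receptor gene KIT was lower (-3.30 on the log2 scale, called under all 10 alternatives) and TAL1 higher (0.32). DESeq2 kept 1 of the 4 epithelial calls and 1 of the 4 neural calls, and lost that of LIN28A (adjusted p = 0.0565). Epithelial calls numbered 1 without knockout replicate 2 and 2 without either wild-type replicate, and neural calls 2 without knockout replicate 1 and 0 without wild-type replicate 2. The VIM (adjusted p = 0.0876) and SPARC (adjusted p = 0.243) calls were lost without wild-type replicate 2. LIN28A was lost without knockout replicate 2 (adjusted p = 0.246) or wild-type replicate 1 (adjusted p = 0.216), and TAL1 without wild-type replicate 1 (adjusted p = 0.237). The summed mesenchymal level lay between 602 and 627 CPM in knockout and between 524 and 549 CPM in wild-type libraries. The part of these markers in the homeobox results was not tested. In RNA from a whole culture, fewer expressing cells and less RNA per cell cannot be told apart.

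Of the 49 genes 47 passed the filter, and 13 of them were called between knockout and wild-type at an adjusted p under 0.05 (edgeR's quasi-likelihood test), 5 higher and 8 lower in knockout. Over all genes tested 6.56% were called, 3.06% higher and 3.5% lower. The 5 that rose were ALX4, NKX2-1, NKX2-4, IRX4 and OTX2. Among the 8 that fell were PAX2, PAX6, IRX2, IRX6, LHX2, PBX3 and MEIS1. DESeq2 called 3 higher and 3 lower, beside 3.61% of all genes (1.57% higher and 2.04% lower). A fit blocked on date called all 13, beside 9.55% of all genes (4.72% higher and 4.83% lower). With scaling by library totals alone 12 were called, beside 6.27% (2.3% higher and 3.97% lower). For each of the 13 the knockout and wild-type libraries did not overlap, which alone makes the direction the same at both dates. The calls rest on the same libraries, so this adds no separate support. A lack of overlap was common: 28 of the 47 genes showed it, 13 with knockout higher and 15 with knockout lower, beside 45.3% of all genes tested (23.5% with knockout higher and 21.8% with knockout lower).

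The rise and fall of individual genes left the group's centre in place. The median log2 fold change of the 47 genes was -0.03, beside 0.0017 over all genes. Of the 13 called genes 8 changed at least 2-fold and 5 by less. A group of 5, among them IRX4, PAX2, IRX2 and IRX6, reached the level of the filter in only 1 of the 2 groups, so these genes had to differ in order to be tested. Among the other 42 genes 8 were called, 4 higher and 4 lower, which is 19.0%, beside 5.87% of all genes that reached the filter level in both groups.

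**Figure D1:**
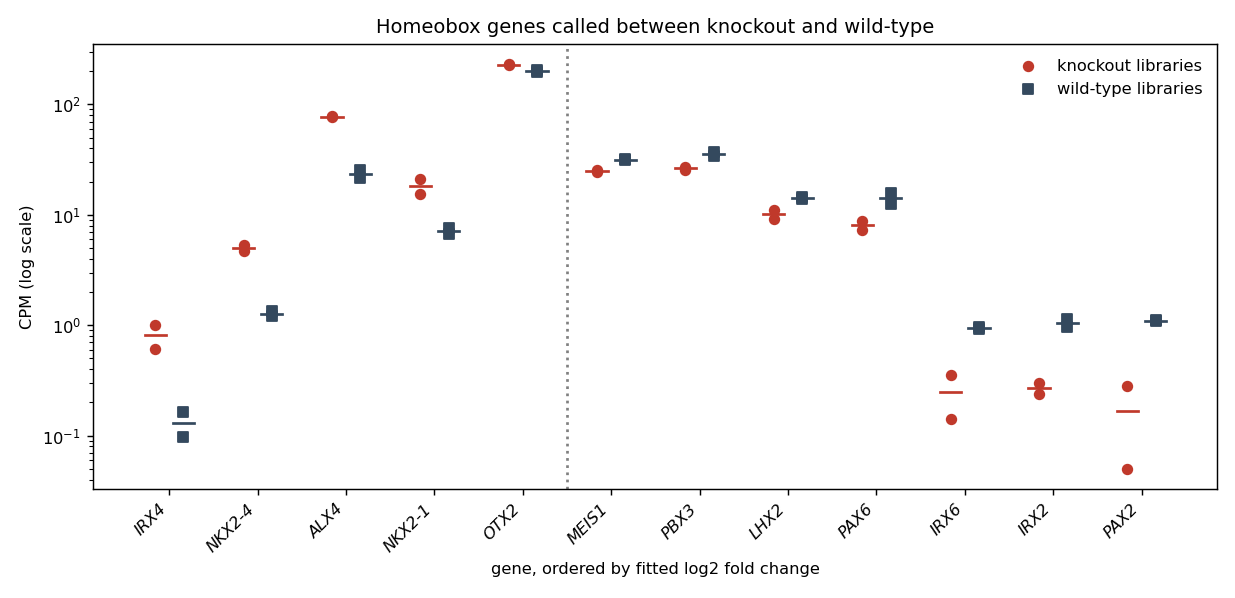
CPM of 12 of the 13 called genes on a log scale, with knockout libraries (circles) left of wild-type libraries (squares) and group means as short lines. Genes left of the dotted line were higher in knockout and those right of it lower, and no gene has overlapping groups.

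Among paired-type genes, ALX4 rose, OTX2 rose slightly, and PAX2 and PAX6 fell. ALX4, which patterns the skull and limbs, lies on chromosome 11 (44260440 to 44310139, GRCh38). It had 76.3 and 78.9 CPM in the knockout libraries, against 21.7 and 25.4 CPM in wild-type libraries. Both knockout libraries were thus well above both wild-type libraries, and the difference was 1.72 ± 0.09 on the log2 scale (SE, adjusted p = 2.40e-21), or 3.29-fold. Its relative ALX1, a gene of facial development, had 9.03 and 8.85 CPM in knockout and 8.70 and 9.56 CPM in wild-type libraries, and these ranges overlapped. The fold change of ALX1 was -0.03 ± 0.15 on the log2 scale (adjusted p = 0.962).

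PITX1, which specifies hindlimb identity, had 36.7 and 43.1 CPM in knockout and 37.2 and 37.1 CPM in wild-type libraries (log2 fold change 0.10 ± 0.09, adjusted p = 0.672). PITX3, a gene of the lens and midbrain, had 8 and 3 counts in knockout and 9 and 16 in wild-type libraries, and was too low to be tested.

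PAX6, the regulator of eye and forebrain development, lies on chromosome 11 (31789026 to 31817961). It had 7.24 and 8.85 CPM in the knockout libraries, against 12.5 and 15.8 CPM in wild-type libraries (-0.82 ± 0.15 on the log2 scale, adjusted p = 7.37e-05). The highest knockout library stayed below the lowest wild-type library. ELP4, a subunit gene of the Elongator complex whose span overlaps PAX6, had 23.5 and 20.4 CPM in knockout and 22.0 and 25.6 CPM in wild-type libraries (-0.12 ± 0.11, adjusted p = 0.671). Since the strand setting of the counting is not given, reads from overlapping genes may be mixed.

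PAX2, which acts in kidney and optic development (chromosome 10, 100735396 to 100829944), had 6 and 1 counts in knockout, against 23 and 27 in wild-type libraries. It reached the filter level in wild-type alone, so it had to differ in order to be tested. Its log2 fold change was -2.65 ± 0.58 (adjusted p = 0.00119). It was -4.30 without knockout replicate 1 and -1.93 without knockout replicate 2. The call was lost without knockout replicate 2 (adjusted p = 0.0955) and with DESeq2 (adjusted p = 0.0593). PAX8, a thyroid and kidney gene, had 0.06 ± 0.15 (adjusted p = 0.920), and PAX9, a gene of tooth and thymus development, had -0.18 ± 0.20 (adjusted p = 0.752), both on the log2 scale.

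OTX2, a gene of the early forebrain that is also expressed in pluripotent cells, had the most counts of the 49 genes in each library. It stood at 231 and 228 CPM in the knockout libraries, against 204 and 198 CPM in wild-type libraries. The difference was 0.20 ± 0.06 on the log2 scale (adjusted p = 0.0340), or 1.15-fold, and had the same sign at both dates. The call was lost with scaling by library totals alone (adjusted p = 0.0788), with DESeq2 (adjusted p = 0.0972), without wild-type replicate 1 (adjusted p = 0.218), wild-type replicate 2 (adjusted p = 0.394), knockout replicate 1 (adjusted p = 0.0675) or knockout replicate 2 (adjusted p = 0.0509). OTX1, its relative, had 0.02 ± 0.21 on the log2 scale (adjusted p = 0.985).

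Among NK-like genes, a pair of close relatives rose: NKX2-1 and NKX2-4. NKX2-1, which specifies thyroid, lung and ventral forebrain, lies on chromosome 14 (36516397 to 36520232, minus strand). It had 15.5 and 21.2 CPM in the knockout libraries, against 6.68 and 7.53 CPM in wild-type libraries (1.36 ± 0.15 on the log2 scale, adjusted p = 1.59e-09). The antisense transcript NKX2-1-AS1 had only 5 and 20 counts in knockout and 4 and 11 in wild-type libraries and was not tested. NKX2-4 lies on chromosome 20 (21395365 to 21397526, minus strand) and had 4.73 and 5.28 CPM in the knockout libraries, against 1.20 and 1.34 CPM in wild-type libraries. Its log2 fold change was 1.97 ± 0.25 (adjusted p = 6.50e-08), or 3.91-fold. For both genes the call held under each of the 10 alternatives run, and at both dates the ratio lay on the same side (1.20 and 1.48 for NKX2-1, 1.89 and 1.90 for NKX2-4, as log2 ratios of CPM + 0.1).

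The other NKX genes missed the threshold or were not tested. NKX2-2, a ventral spinal cord and pancreas gene, had 3.55 and 4.32 CPM in knockout and 5.29 and 5.18 CPM in wild-type libraries (log2 fold change -0.41 ± 0.20, adjusted p = 0.283). NKX3-2, a gene of cartilage and stomach development, had 0.33 ± 0.12 (adjusted p = 0.115). NKX6-1, a gene of beta cells and motor neuron progenitors, had -0.01 ± 0.11 (adjusted p = 0.979). NKX2-3 (0.35 ± 0.26) missed the threshold too. NKX2-5, the cardiac progenitor gene, had 0 counts in both knockout libraries, against 11 and 9 in wild-type libraries. It was at least 6.01-fold lower in knockout, taking 3 counts over the knockout group as the floor. Its 20 counts, all from wild-type libraries, just met the minimum, so it was included through that group alone. It lay below the filter. Without a filter its adjusted p was 0.00296, and where the filter let it in it missed the threshold, without knockout replicate 1 (adjusted p = 0.0609) or knockout replicate 2 (adjusted p = 0.0841).

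DLX genes pattern the jaw arches and the forebrain. None of the 6 was called (edgeR's quasi-likelihood test), beside 6.56% of all genes tested. At that share a set of 6 genes would often hold no call. In the same fit 0 had an unadjusted p under 0.05, and DESeq2 called 0, beside 3.61%. Their log2 fold changes ran from -0.21 to 0.21. DLX1, the DLX gene with the highest CPM, had 16.1 and 15.3 CPM in knockout and 13.4 and 15.9 CPM in wild-type libraries (0.10 ± 0.13, adjusted p = 0.784). The MSX genes are targets of bone morphogenetic protein signals in many tissues. MSX1 had 20.6 and 16.9 CPM in knockout and 26.2 and 17.9 CPM in wild-type libraries, which overlapped (-0.23 ± 0.16, adjusted p = 0.567). It was called as lower without wild-type replicate 2 (adjusted p = 0.0189). MSX2 had 7.52 and 7.39 CPM in knockout and 9.52 and 9.23 CPM in wild-type libraries (-0.33 ± 0.16, adjusted p = 0.260).

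The IRX genes, which lie in clusters on chromosomes 5 and 16, went in opposite directions. IRX4, best known from the ventricles of the heart, had 13 and 20 counts in the knockout libraries, against 2 and 4 in wild-type libraries. Its log2 fold change was 2.56 ± 0.64 (adjusted p = 0.00545), and the ratio of summed counts, knockout over wild-type, was 6.10 with an exact 95% interval of 2.52 to 17.8. IRX2 had 5 and 6 counts in knockout, against 20 and 28 in wild-type libraries (-1.95 ± 0.51, adjusted p = 0.00986). IRX6 had 3 and 7 counts in knockout, against 20 and 23 in wild-type libraries (-1.93 ± 0.54, adjusted p = 0.0183). IRX4 reached the filter level in knockout alone, and IRX2 and IRX6 in wild-type alone. Each thus had to differ in order to be tested. IRX3 (-0.29 ± 0.15, adjusted p = 0.318) and IRX5 (-0.02 ± 0.15, adjusted p = 0.970) missed the threshold.

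The IRX calls changed with the method and with single libraries. DESeq2 called 0 of the 3 (adjusted p = 0.149 for IRX4, 0.204 for IRX2 and 0.285 for IRX6). Without wild-type replicate 1 the adjusted p was 0.155 for IRX4, 0.0635 for IRX2 and 0.178 for IRX6, and without wild-type replicate 2 it was 0.0747, 0.212 and 0.172 in the same order. The call of IRX2 was also lost without knockout replicate 1 (adjusted p = 0.1002) or knockout replicate 2 (adjusted p = 0.0732). The log2 fold change of IRX6 was -2.69 without knockout replicate 2, and its call was lost without knockout replicate 1 (adjusted p = 0.245), as was that of IRX4 without knockout replicate 2 (adjusted p = 0.279).

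MEIS1 and PBX3, cofactors of HOX proteins that are often active together in leukaemia, fell by modest amounts. PBX3 (chromosome 9, 125747373 to 125967377) had 25.7 and 26.9 CPM in the knockout libraries, against 34.4 and 37.4 CPM in wild-type libraries (-0.45 ± 0.10 on the log2 scale, adjusted p = 0.000763). MEIS1 (chromosome 2, 66435125 to 66573869) had 25.4 and 24.5 CPM in knockout, against 31.9 and 31.3 CPM in wild-type libraries (-0.34 ± 0.10, adjusted p = 0.0201). Their relatives missed the threshold: MEIS2 had 0.05 ± 0.09, MEIS3 0.12 ± 0.11, PBX2 0.19 ± 0.10 and PBX4 0.03 ± 0.26 on the log2 scale, with adjusted p from 0.317 to 0.978. The PBX3 call was lost without wild-type replicate 2 (adjusted p = 0.0649). The MEIS1 call was lost with DESeq2 (adjusted p = 0.106) and without wild-type replicate 1 (adjusted p = 0.168), wild-type replicate 2 (adjusted p = 0.136) or knockout replicate 2 (adjusted p = 0.123).

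Of 5 LHX genes only LHX2, a regulator of forebrain, eye and hair follicle development, was called. It had 11.1 and 9.25 CPM in the knockout libraries, against 13.99 and 14.6 CPM in wild-type libraries (-0.49 ± 0.14 on the log2 scale, adjusted p = 0.0184). Its call was lost with DESeq2 (adjusted p = 0.136) and without wild-type replicate 1 (adjusted p = 0.0508), wild-type replicate 2 (adjusted p = 0.154) or knockout replicate 2 (adjusted p = 0.306). LHX1, a gene of the kidney and of the head organizer, had 3.97 and 4.63 CPM in knockout and 2.79 and 2.88 CPM in wild-type libraries (0.60 ± 0.22, adjusted p = 0.113). The pituitary gene LHX4 had -0.34 ± 0.15 (adjusted p = 0.223), the gonadal gene LHX9 had -0.06 ± 0.11 (adjusted p = 0.882) and LHX6, a gene of cortical interneurons, had 0.09 ± 0.26 (adjusted p = 0.930), with -0.30 to 0.69 when each library was left out in turn. The sine oculis genes, which act in eye, ear, kidney and muscle, gave 0 calls among 5 with edgeR, beside 6.56% of all genes tested. DESeq2 called 0 of them, beside 3.61%, and 1 had an unadjusted p under 0.05 in the edgeR fit. That was SIX5, at 14.2 and 16.6 CPM in knockout and 13.2 and 12.4 CPM in wild-type libraries (0.27 ± 0.13, adjusted p = 0.268). SIX4, the member of that family with the highest CPM, had -0.13 ± 0.10 (adjusted p = 0.604).

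**Figure D2:**
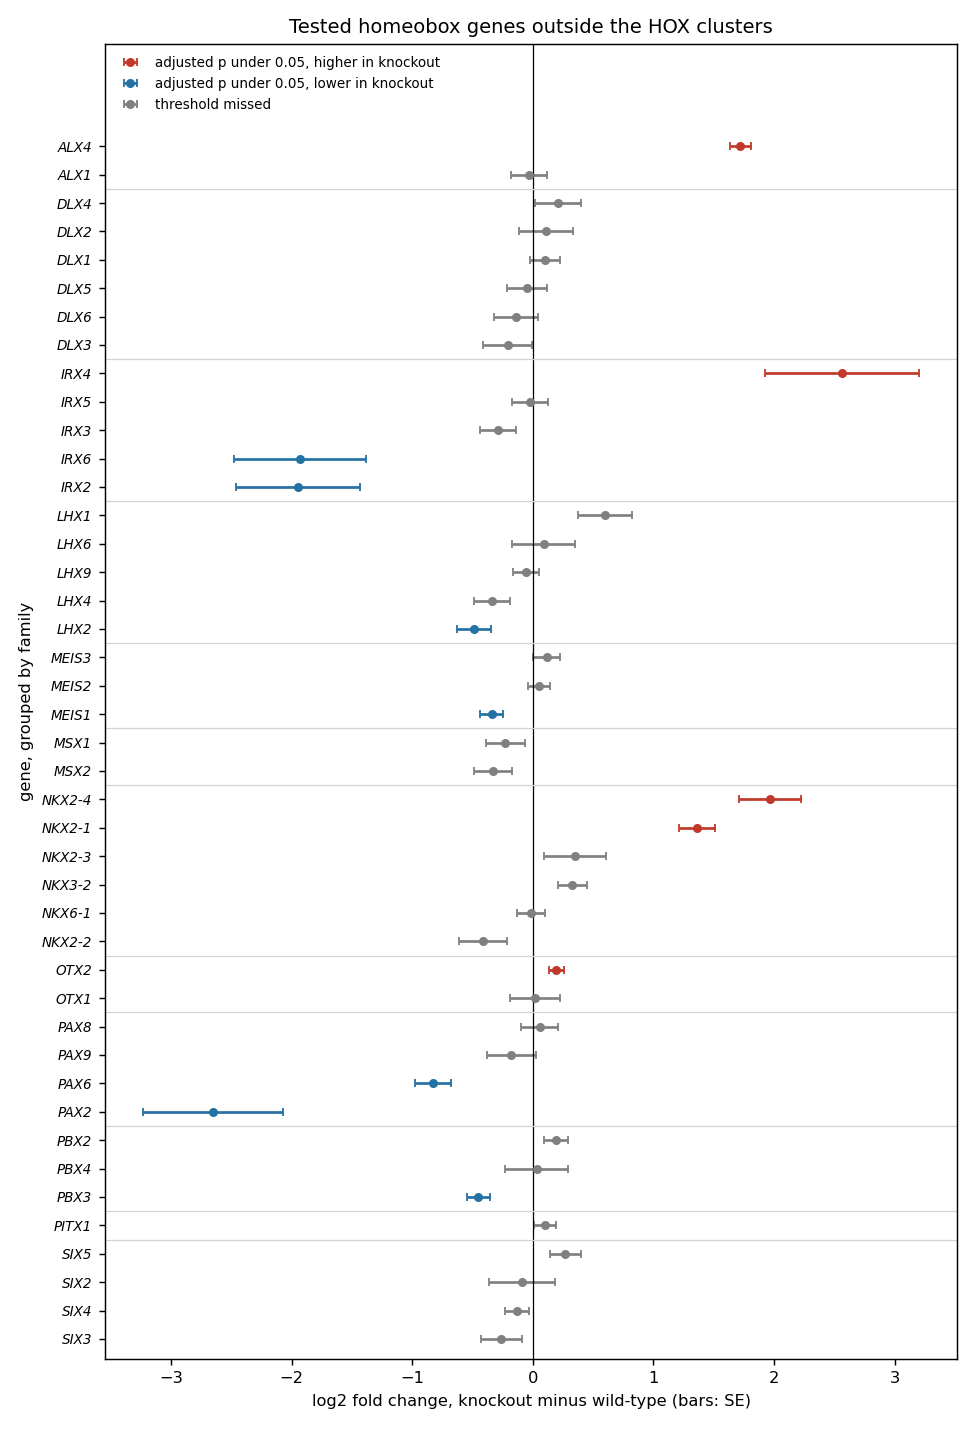
Log2 fold change of 43 of the 47 tested genes, knockout minus wild-type, with SE as bars and families separated by grey lines. Red and blue points passed the threshold, higher and lower in knockout, and grey points missed it. The DLX, MSX and sine oculis families hold grey points alone.

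**Figure D3:**
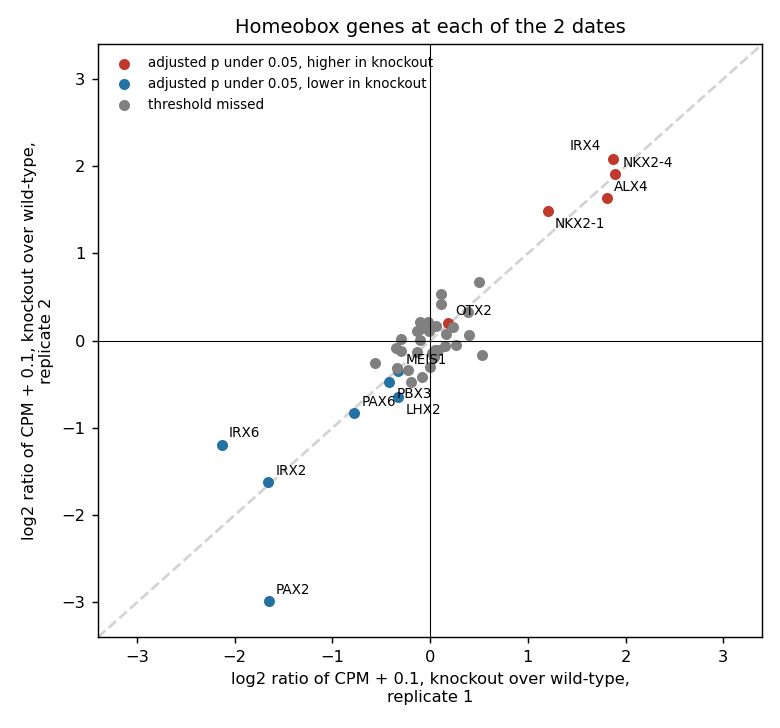
Log2 ratio of CPM + 0.1, knockout over wild-type, at the first date (x axis) and the second date (y axis) for 43 of the 47 tested genes, with a dashed line where both are equal. The 12 called genes shown lie at the lower left and upper right, and PAX2 (-1.65 and -2.99) and IRX6 (-2.13 and -1.19) lie farthest from the line among those named.

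Genes of these families often sit beside a relative and share its regulatory surroundings, so neighbours were set side by side. The 47 tested genes formed 10 pairs closer than 1 Mb. In 6 pairs neither gene was called, among them SIX3 and SIX2, DLX1 and DLX2, DLX6 and DLX5, IRX3 and IRX5, and DLX4 and DLX3. In the other 4 pairs the calls differed. On chromosome 5 IRX4 rose (2.56) while IRX2, 848 kb away, fell (-1.95). On chromosome 14 NKX2-1 rose (1.36) while PAX9, 137 kb away, had -0.18 and missed the threshold. On chromosome 20 NKX2-4 rose (1.97) while NKX2-2, 113 kb away, had -0.41 and missed it. On chromosome 16 IRX6 fell (-1.93) while IRX5, 390 kb away, had -0.02 and missed it. The difference within a pair was not tested.

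**Figure D4:**
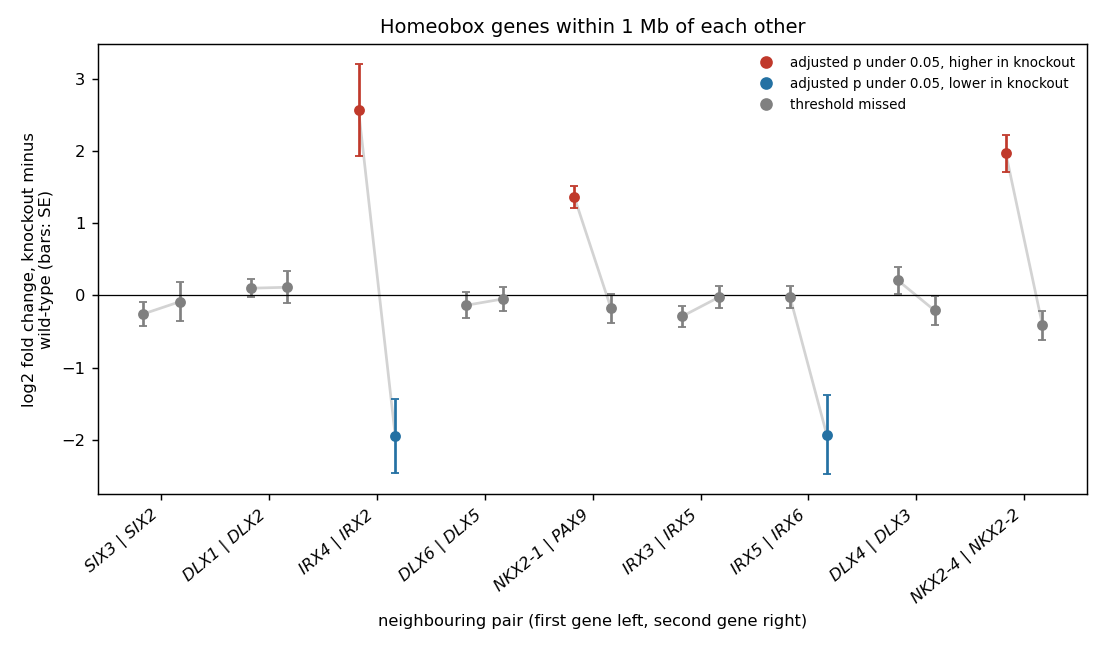
Log2 fold change, knockout minus wild-type, of both genes in 9 of the 10 neighbouring pairs, with SE as bars. Pairs joined by steep grey lines (IRX4 and IRX2, NKX2-1 and PAX9, IRX5 and IRX6, NKX2-4 and NKX2-2) hold a called gene, and the flat pairs hold none.

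For 3 of these 4 pairs both promoters were found in the RefSeq table, and they are printed to show the DNA at which neighbours with different calls start. Each runs from 250 bases before to 50 bases after the RefSeq start (GRCh38.p14), 5′ to 3′ on the gene's own strand, with CG dinucleotides in capitals. The windows are IRX4 at chr5:1886896-1887195 (minus strand), IRX2 at chr5:2751628-2751927 (minus strand), NKX2-1 at chr14:36520183-36520482 (minus strand), PAX9 at chr14:36657318-36657617 (plus strand), NKX2-4 at chr20:21397477-21397776 (minus strand) and NKX2-2 at chr20:21522640-21522939 (minus strand).
IRX4: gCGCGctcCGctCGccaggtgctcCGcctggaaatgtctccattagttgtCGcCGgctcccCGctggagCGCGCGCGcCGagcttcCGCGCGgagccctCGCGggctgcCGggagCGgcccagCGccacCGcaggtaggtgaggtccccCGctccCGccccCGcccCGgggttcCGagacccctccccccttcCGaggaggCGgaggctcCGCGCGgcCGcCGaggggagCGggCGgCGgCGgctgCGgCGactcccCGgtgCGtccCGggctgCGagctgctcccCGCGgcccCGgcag
IRX2: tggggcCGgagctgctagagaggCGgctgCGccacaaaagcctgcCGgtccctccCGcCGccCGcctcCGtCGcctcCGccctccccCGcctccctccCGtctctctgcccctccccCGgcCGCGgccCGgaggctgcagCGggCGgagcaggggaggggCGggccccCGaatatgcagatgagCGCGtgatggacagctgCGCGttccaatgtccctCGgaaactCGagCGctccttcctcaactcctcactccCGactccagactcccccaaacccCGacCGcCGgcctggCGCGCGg
NKX2-1: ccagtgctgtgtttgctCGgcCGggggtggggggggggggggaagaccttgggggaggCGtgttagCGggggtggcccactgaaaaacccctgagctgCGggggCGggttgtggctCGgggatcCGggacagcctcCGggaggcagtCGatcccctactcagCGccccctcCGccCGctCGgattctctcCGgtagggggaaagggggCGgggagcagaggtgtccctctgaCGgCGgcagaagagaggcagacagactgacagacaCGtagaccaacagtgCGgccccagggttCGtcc
PAX9: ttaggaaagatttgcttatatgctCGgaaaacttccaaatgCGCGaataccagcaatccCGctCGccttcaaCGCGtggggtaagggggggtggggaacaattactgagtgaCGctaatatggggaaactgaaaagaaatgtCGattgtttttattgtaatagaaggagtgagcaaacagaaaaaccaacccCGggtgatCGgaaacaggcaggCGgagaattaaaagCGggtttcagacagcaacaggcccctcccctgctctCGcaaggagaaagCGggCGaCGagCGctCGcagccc
NKX2-4: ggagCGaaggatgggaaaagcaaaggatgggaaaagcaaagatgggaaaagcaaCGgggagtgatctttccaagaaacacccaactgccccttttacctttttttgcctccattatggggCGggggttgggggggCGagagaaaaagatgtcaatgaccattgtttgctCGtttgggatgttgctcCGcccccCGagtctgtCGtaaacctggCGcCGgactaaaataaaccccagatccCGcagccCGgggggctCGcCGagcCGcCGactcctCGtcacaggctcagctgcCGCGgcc
NKX2-2: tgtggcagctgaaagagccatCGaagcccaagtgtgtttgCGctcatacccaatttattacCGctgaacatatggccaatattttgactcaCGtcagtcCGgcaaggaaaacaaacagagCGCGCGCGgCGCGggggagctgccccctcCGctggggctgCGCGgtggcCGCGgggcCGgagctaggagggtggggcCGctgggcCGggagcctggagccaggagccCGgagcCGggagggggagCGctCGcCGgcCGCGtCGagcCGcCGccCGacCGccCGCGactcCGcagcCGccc

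The windows differed in CpG content. IRX4 had 47 CG dinucleotides, more than 97.6% of all promoters in the table, and IRX2 had 34. NKX2-4 had 19 and NKX2-2 had 35, while NKX2-1 had 21 and PAX9 had 19. A window was found for 33 of the 49 genes. Their median was 28 CG dinucleotides, beside 26 over tested genes and 14 over all 27305 promoters. The homeodomain core TAATTA, a palindrome, lay in 1 of the 33 windows (that of MSX2), beside 1.90% of the promoters of tested genes and 4.98% of all promoters. The bicoid-type motif TAATCC, searched on both strands, lay in 1 (NKX3-2), beside 4.16% of tested-gene promoters and 6.39% of all. The NKX2-type motif CAAGTG, also on both strands, lay in 1 (NKX2-2), beside 8.51% of tested-gene promoters and 11.5% of all.

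The IRX2 window also holds the start of a divergent transcript, listed as C5orf38 in the counts and as IRX2-DT in RefSeq (chromosome 5, 2751893 to 2758578). It was chosen after its values were seen. C5orf38 had 0.851 and 0.704 CPM in the knockout libraries, against 1.87 and 3.36 CPM in wild-type libraries (-1.76 ± 0.34 on the log2 scale, adjusted p = 0.000252). Both it and IRX2 fell, and the C5orf38 call was lost without wild-type replicate 2 (adjusted p = 0.117). The adjusted p of the other nearest tested genes outside these families was 0.0683 or more. ALX4 rose while EXT2, 8.48 kb away, had -0.01 ± 0.07, and NKX2-4 rose while XRN2, 5.54 kb away, had -0.03 ± 0.06.

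Antisense transcripts named after these genes were counted in 11 rows, and 5 could be tested. None was called by edgeR's quasi-likelihood test, beside 6.56% of all genes tested. In the same fit 0 had an unadjusted p under 0.05, and DESeq2 called 0, beside 3.61%. OTX2-AS1 had 30 and 37 counts in knockout and 29 and 38 in wild-type libraries (0.15 ± 0.32 on the log2 scale). DLX6-AS1 had 82 and 111 counts in knockout and 154 and 111 in wild-type libraries (-0.32 ± 0.22, adjusted p = 0.522).

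Partners of these factors were read from lists, beside 6.56% called over all genes. Among the EYA and DACH partners of the sine oculis proteins, 5 were tested (median 0.01 on the log2 scale), and EYA1 fell while 0 rose. EYA1, a coactivator phosphatase, had 0.284 and 0.603 CPM in the knockout libraries, against 2.88 and 3.48 CPM in wild-type libraries (-2.85 ± 0.36, adjusted p = 3.94e-08). Only in wild-type did both libraries reach the filter level, since EYA1 had 6 and 12 counts in knockout. Of the 5 sine oculis genes 0 were called. With the date as a block EYA4 was higher as well (blocked adjusted p = 0.0435). Among 9 LIM cofactors (median 0.13) LMO3 was lower (-0.41 ± 0.12, adjusted p = 0.0282) and 0 were higher, and with the date as a block LMO4 was lower too (blocked adjusted p = 0.0324). The LMO3 call was lost with DESeq2 (adjusted p = 0.202), without knockout replicate 1 (adjusted p = 0.310) and without wild-type replicate 2 (adjusted p = 0.360). Of 5 Groucho-type corepressors (median 0.10) and 29 Polycomb genes (median -0.04) 0 were called with edgeR and 0 with DESeq2, with 1 and 5 at an unadjusted p under 0.05. With the date as a block TLE1 was lower (blocked adjusted p = 0.0362) and the Polycomb gene PHC2 higher (blocked adjusted p = 0.0157).

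Of 10 tested genes of Hedgehog signalling and the ventral neural tube, where NKX2-2, NKX6-1 and PAX6 mark progenitor zones, 3 were higher and 0 lower (median 0.05). Over all genes tested 3.06% were higher and 3.5% lower. The 3 were the receptor gene SMO (0.27 ± 0.07, adjusted p = 0.0104) and the lineage factor genes OLIG1 (0.98 ± 0.29, adjusted p = 0.0239) and OLIG2 (0.49 ± 0.13, adjusted p = 0.0145). DESeq2 kept the SMO call (adjusted p = 0.0452). The calls of OLIG1 and OLIG2 were lost with DESeq2 (adjusted p = 0.291 and 0.141), without wild-type replicate 1 (adjusted p = 0.358 and 0.543) and without knockout replicate 2 (adjusted p = 0.275 and 0.0713). That of SMO was lost without wild-type replicate 1 (adjusted p = 0.0831) or wild-type replicate 2 (adjusted p = 0.204). The ligand gene SHH was below the filter, and the pathway's readout gene PTCH1 had 0.06 ± 0.09 (adjusted p = 0.845).

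Homeobox genes of other classes were given as a comparison. Of 57 tested 2 were higher and 5 lower (12.3%, beside 6.56% of all genes tested), with a median log2 fold change of -0.02. PRRX1, a gene of limb and facial mesenchyme, had 1 and 2 counts in knockout, against 54 and 65 in wild-type libraries, a ratio of wild-type over knockout of 35.8 (exact 95% interval 11.9 to 176). MKX, a TALE gene of tendon, had 0 and 1 counts in knockout, against 30 and 37 in wild-type libraries, a ratio of 60.4 (10.5 to 2422). Both PRRX1 and MKX passed the filter through the wild-type libraries alone, so they had to differ in order to be tested. The 12.3% counts such genes in. The motor neuron gene ISL1, SATB1 and PRRX2 were the other genes called lower. Without wild-type replicate 2 the calls of SATB1 (adjusted p = 0.150) and PRRX2 (adjusted p = 0.339) were lost, and the list then held 1 higher and 3 lower. The PRRX2 call was also lost without knockout replicate 1 (adjusted p = 0.120) and with DESeq2 (adjusted p = 0.225). Of 26 tested HOX cluster genes 4 were higher and 2 lower (23.1%), with a median of 0.16. The 3 of smallest p were HOXD13 (0.84 ± 0.11, adjusted p = 3.77e-07), HOXC10 (-1.36 ± 0.29, adjusted p = 0.000729) and HOXC9 (-1.85 ± 0.42, adjusted p = 0.00212). With scaling by library totals alone 2 HOX genes were higher and 2 lower, and with DESeq2 1 and 1. Without wild-type replicate 1 or knockout replicate 2 a single HOX gene was higher, and without wild-type replicate 2 the HOXC9 call was lost (adjusted p = 0.159). No test compares these shares with that of the 47 genes.

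A further 17 symbols of the same families lay below the minimum of 20 summed counts. Their sums ran from 0 to 11, and LHX8, NKX1-1 and PAX4 had 0 counts in every library. Just inside the minimum was NKX2-5 with 20 counts, and just outside it were LHX5 with 11 and PAX5 with 10. No fold change is given for these 17.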

How the data were processed

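RNA-seq of 2 knockout and 2 wild-type libraries was used, and the small RNA libraries were not used here. The authors deposited raw counts, 1 whole number per gene symbol and library. Per the submitters' processing notes, hg38 was the build, and the tools included STAR, featureCounts from Subread, SAMtools, cutadapt and FastQC. Not given in the sources used here: tool versions, annotation, strand setting. Near-identical genes may lose or share reads in counting.

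The fit used edgeR 4.0.16 under R 4.3.3, with filterByExpr (minimum count 10), TMM scaling and the robust quasi-likelihood F test of knockout against wild-type, with Benjamini-Hochberg adjustment over the 16233 genes kept and a threshold of 0.05. Each SE is the absolute log2 fold change over the root of its F statistic. CPM use TMM-scaled library sizes, and per-date ratios add 0.1 CPM. Alternatives were DESeq2 1.42.0, other scalings, no filter, no robust shrinkage, the date as a block, and leaving out each library. Chi-square per degree of freedom between replicates was 4.69 in knockout and 3.95 in wild-type, so none was a duplicate.

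The titles carry the same dates in both groups, so the dates pair the libraries (correlation of same-date deviations 0.08 across genes).

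Members, lists and tests were chosen with earlier results of these data known. The named genes were all called members, the member of each family with the highest CPM, members at 0 counts in a group, the 5 uncalled members of smallest p, BCDIN3D, and up to 3 called genes per list. Other names (ALX1, PITX1, PITX3, ELP4, EXT2, XRN2, C5orf38, PTCH1, SHH, remaining relatives, and genes called only with the block) were chosen after their values were seen. Gene positions came from RefSeq GRCh38.p14, matched by symbol for all 49 genes. Intervals cover counting error only. A few genes are not reported here by name or drawn, but remain in the counts.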

Additional observations from a re-analysis of the deposited data

How the results depend on the processing

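All 13 called homeobox genes kept their direction under the 10 alternatives, and ALX4, NKX2-1, NKX2-4 and PAX6 also kept their calls under each of them. The kept direction adds little, since groups that do not overlap keep their order when a library is left out. With the date as a replicate block all 13 calls remained and no further member was called. Over all genes the number called higher was then 767, against 497 without the block. Beyond the calls given above the block added ZFHX4 (blocked adjusted p = 0.0187) and ADNP (blocked adjusted p = 0.0273) as lower among other homeobox classes. DESeq2 called 3 of the homeobox genes higher and 3 lower, and over all genes 255 higher and 331 lower. Leaving out each library in turn, which assumes that the lone library left in a group varies like the others, gave 3 to 4 homeobox genes higher and 4 to 6 lower, with a median log2 fold change from -0.095 to 0.031. Over all genes it gave 240.0 to 684 higher and 340.0 to 705 lower. Under scaling by library totals alone 36.7% of all calls were higher, against 46.7% under TMM, with 4 homeobox genes higher and 8 lower.

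Of 34 uncalled members 16 took both signs when each library was left out in turn. Their log2 fold changes ran from -0.30 to 0.69 for LHX6, -0.24 to 0.24 for OTX1, -0.35 to 0.031 for PAX9, -0.017 to 0.24 for DLX1, -0.16 to 0.036 for LHX9, -0.093 to 0.19 for MEIS2, -0.48 to 0.065 for MSX1, -0.089 to 0.062 for NKX6-1 and -0.019 to 0.22 for PITX1. The others were ALX1, DLX5, DLX6, IRX5, PAX8, PBX4 and SIX2. The cause of these changes was not tested. Genes with a few counts per library, such as IRX4 and PAX2, are limited by depth.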
